A study of Mus musculus with 12 samples.

Results

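The genes described here are 37 glycolysis and hypoxia response genes: glucose transporters, the enzymes that turn glucose into pyruvate and lactate, the regulators that steer pyruvate, the oxygen-sensing proteins and some of their targets. Each gene was read from the brightest probe set that the platform annotation gives to that gene alone. Such a probe set was found for 35 of the 37 genes, of 18194 genes in all, and 34 of them were bright enough to be tested among 12673 genes. Gpi1 and Eno1 were not analysed here. Adm, which encodes the vasodilator peptide adrenomedullin, lay below the brightness limit, with log2 signals between 0.99 and 1.74 on the 12 arrays.

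The cells were I/11, a mouse line of immature erythroid progenitors labelled as expanding and kept in serum-free medium with erythropoietin, stem cell factor and dexamethasone. I/11 cells come from fetal liver of mice that lack p53, so all groups share that deficiency. The study was built around phospholipase C gamma 1 (Plcg1) in signalling from the erythropoietin receptor. I/11 cells were stably infected with lentiviral pLKO vectors carrying puromycin resistance and either the Plcg1 hairpin sh14, the Plcg1 hairpin sh133 or a scrambled control hairpin, scr. Each of these 3 lines was measured at 1, 6, 12 and 22 h on 1 array per line and time, which makes 8 hairpin arrays and 4 scr arrays. What happened at time 0 is not stated in the labels. No second infection with the same hairpin is labelled, so whatever else sets a line apart cannot be told apart from its hairpin. A p-value here measures the spread between these arrays about a common time course, since no array has a replicate of the same line and time.

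Glycolysis splits glucose into pyruvate through a fixed chain of enzymes, and lactate dehydrogenase or the mitochondrion then takes the pyruvate. When oxygen is scarce, prolyl hydroxylases stop marking the HIF alpha subunits for destruction by the VHL ubiquitin ligase, and HIF pairs with ARNT to raise many glycolytic enzymes, glucose transporters and pyruvate dehydrogenase kinases. Mature red cells have no mitochondria and live on glycolysis, and erythropoietin, the hormone of red cell formation, is itself a HIF target.

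All signals are deposited log2 RMA values, so a difference of 1 is a factor of 2 within a gene and levels of different genes cannot be compared. The array medians lay between 1.84 and 1.92. The array titles carry 2 date strings, called array runs here: the sh14 arrays were all in run 1, the scr arrays were all in run 2, and sh133 had its 6 and 12 h arrays in run 1 and its 1 and 22 h arrays in run 2. Thus sh14 and scr never met within a run, and the term for the run rests on sh133 alone. Plcg1 itself read 4.16, 3.86, 4.27 and 4.30 at 1, 6, 12 and 22 h in sh14, 4.53, 4.35, 4.37 and 4.39 in sh133, and 4.74, 4.45, 4.61 and 4.31 in scr. The sh14 values all lay below the scr value of the same time, but the targeted transcript was not called lower in either hairpin line (both hairpins against scr, log2 difference -0.24 ± 0.17 SE, limma adjusted p = 0.592). All 9 tested erythroid markers, Gata1, Klf1, Epor and Tfrc among them, were called higher at 22 h than at 1 h, beside 8.74% of all tested genes. The macrophage and granulocyte marker list summed to at most 28.7 signal units on any array, and the lymphoid list to at most 11.6. Signals come from bulk RNA, so fewer cells of a type and less RNA per cell cannot be told apart.

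Between the hairpin lines and scr, the clearest difference among these genes was in Pdk1, the kinase that switches off pyruvate dehydrogenase and so keeps pyruvate out of the mitochondrion. Pdk1 read 6.22, 6.30, 5.87 and 6.63 at 1, 6, 12 and 22 h in sh14, 6.21, 6.52, 6.51 and 6.51 in sh133, and 7.00, 7.22, 7.27 and 7.31 in scr. Every hairpin array lay below every scr array. In the model with shRNA, time and array run, Pdk1 was 2.09-fold lower over both hairpins (log2 difference -1.06 ± 0.18 SE, 8 arrays against 4, limma adjusted p = 0.0158). Each hairpin line passed the test by itself, sh14 at -1.22 ± 0.23 (adjusted p = 0.0200) and sh133 at -0.90 ± 0.15 (adjusted p = 0.00850), against the same scr arrays. The related kinase Pdk3 differed by -0.03 ± 0.17 and was not called.

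Pdk1 was the only one of the 34 genes called in the comparison of both hairpins with scr, where 2.18% of all tested genes were called and 1.04% were lower. Its call over both hairpins was lost, with the difference between -1.02 and -1.11, when any 1 of the 4 sh133 arrays was left out, and at -0.71 with the mean over its probe sets. The sh14 call was also lost without any 1 sh133 array, at -1.13 to -1.31, and without the 6 h (-1.27) or 12 h (-0.94) sh14 array, and the sh133 call was lost without the 1 h (-0.94) or 22 h (-0.87) sh133 array. In sh14 against scr it was again Pdk1 alone, beside 3.06% of all genes called and 1.56% lower, and in sh133 against scr there were 3 lower genes and none higher, beside 4.91% called and 2.45% lower. The median log2 difference of the 34 genes was -0.15 over both hairpins, -0.10 in sh14 and -0.18 in sh133, while the medians over all tested genes were 0.01, 0.02 and 0.01. Over both hairpins 24 of the 34 differences were below 0 and 10 above. Without the array run term, 14 of the 34 genes were called over both hairpins, all lower, beside 16.2% of all genes called and 8.17% lower. The same model gave 16 genes in sh14, beside 23.7%, and 10 in sh133, beside 12.6%.

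**Figure D1:**
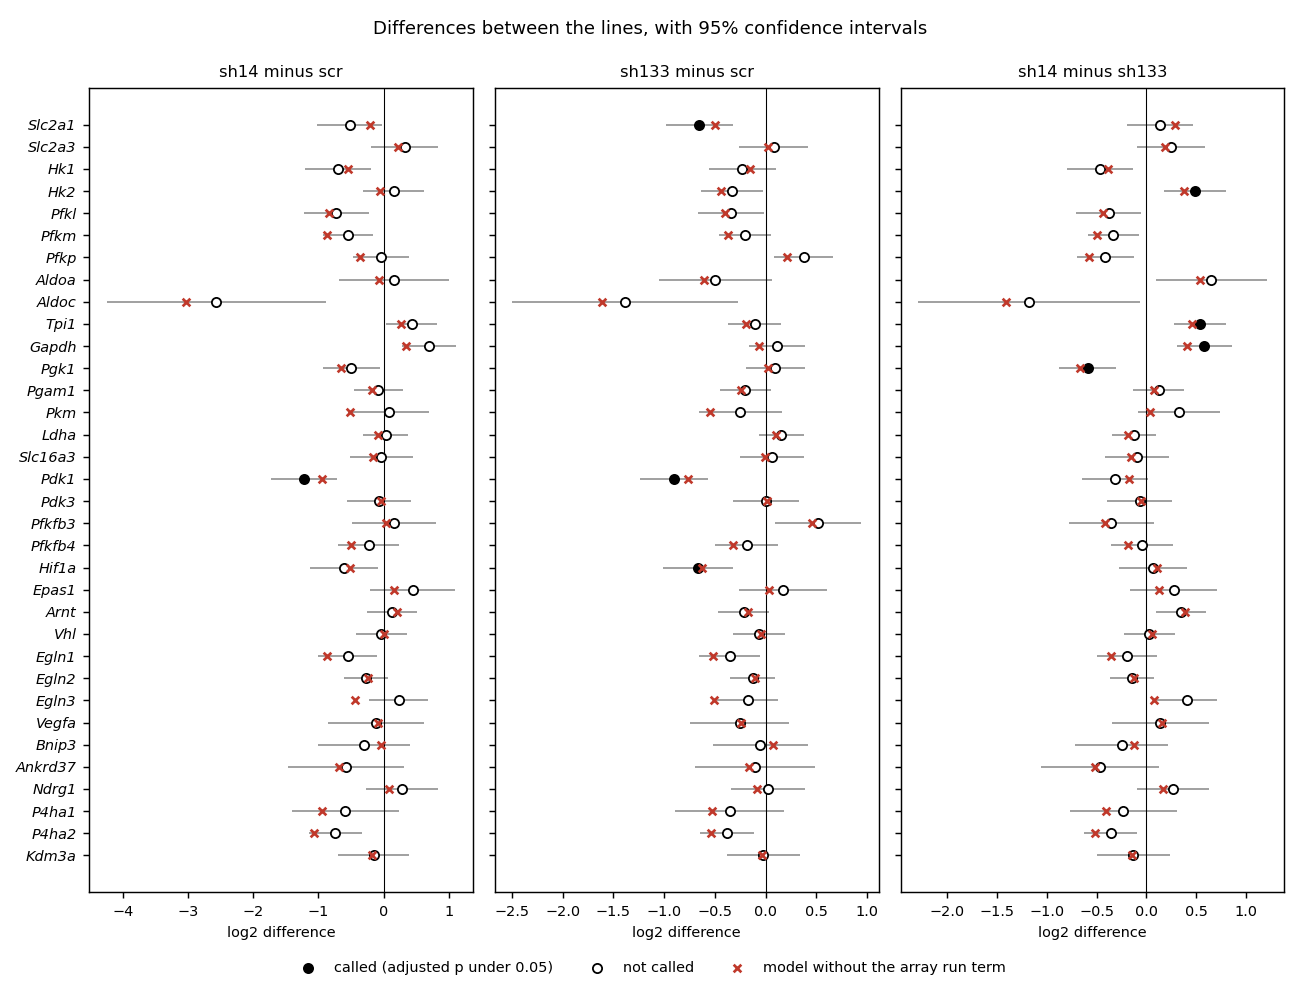
Log2 differences of the 34 tested genes, in pathway order, for sh14 minus scr, sh133 minus scr and sh14 minus sh133. Circles are the limma estimates with 95% confidence intervals as bars, filled where the adjusted p is under 0.05, and crosses are the estimates without the array run term; Pdk1 is filled in the first and second panels.

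Among the glucose transporters, Slc2a1 (GLUT1, the main glucose transporter of red cell precursors) was lower in sh133. It read 6.45, 6.31, 6.60 and 6.79 in sh14, 6.12, 6.25, 6.16 and 6.47 in sh133, and 6.80, 6.34, 6.53 and 7.33 in scr. All sh133 values lay below the scr value of the same time, yet the ranges of the lines overlapped. The sh133 difference of -0.65 ± 0.15 was called (limma adjusted p = 0.0347), as it was in run 2 alone, at -0.77 (adjusted p = 0.0416). It was lost, at -0.51 to -0.70, without the 6 h sh14 array, the 1 or 22 h sh133 array or the 1, 12 or 22 h scr array, and at -0.43 with time as log2 hours. For sh14 the difference was -0.52 ± 0.23 with the run term and was not called (limma adjusted p = 0.272). Without adjustment for run, sh14 minus scr was -0.35, -0.03, 0.08 and -0.54 at 1, 6, 12 and 22 h. Slc2a3 (GLUT3) differed by 0.32 ± 0.23 in sh14 and by 0.08 ± 0.15 in sh133, neither called.

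The hexokinases trap glucose in the cell as glucose 6-phosphate. Hk1 read 8.49, 8.19, 8.29 and 8.31 in sh14, 9.06, 8.58, 8.57 and 8.63 in sh133, and 9.42, 8.45, 8.59 and 8.98 in scr. The scr array at 6 h reached below the highest sh14 array, so sh14 and scr overlapped, and the differences from scr of -0.69 ± 0.23 in sh14 and -0.23 ± 0.15 in sh133 were not called. Hk2 read 4.99, 4.80, 4.68 and 4.09 in sh14, 4.79, 4.10, 4.18 and 3.96 in sh133, and 5.14, 4.55, 4.59 and 4.49 in scr. At each time the sh14 array was above the sh133 array, and that difference between the hairpin lines was called (0.49 ± 0.14, limma adjusted p = 0.0412).

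Phosphofructokinase commits the sugar to glycolysis, and its liver, muscle and platelet type subunits did not follow one pattern. Pfkl read 4.46, 3.86, 4.47 and 4.34 in sh14, 5.08, 4.43, 4.48 and 4.87 in sh133, and 5.56, 4.74, 4.91 and 5.25 in scr. Pfkm read 5.49, 5.95, 6.12 and 6.09 in sh14, 6.21, 6.30, 6.45 and 6.68 in sh133, and 6.57, 6.79, 7.02 and 6.72 in scr. For both of these the 3 lines kept one order at all 4 times, with sh14 lowest and scr highest. The differences over both hairpins were -0.53 ± 0.17 for Pfkl and -0.38 ± 0.14 for Pfkm and were not called, but both were called without the array run term, at -0.62 each. Pfkp read 6.61, 6.56, 6.61 and 6.58 in sh14, 7.52, 6.92, 7.00 and 7.23 in sh133, and 7.34, 6.88, 6.84 and 6.76 in scr. The platelet type subunit was lower in sh14 and higher in sh133 than in scr at every time, with neither difference called (-0.04 ± 0.20 in sh14 and 0.38 ± 0.13 in sh133). Without the run term the sh14 difference was -0.36 and was called.

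Aldolase cleaves the hexose into a pair of triose phosphates, and its brain type isoform Aldoc had the widest separation of the lines of any of the 34 genes. Aldoc read 3.14, 3.38, 3.58 and 4.41 in sh14, 5.32, 4.79, 4.73 and 5.31 in sh133, and 7.59, 6.88, 6.53 and 5.62 in scr. The ranges of the 3 lines did not overlap, and sh14 minus scr gave -4.45 at 1 h but -1.21 at 22 h. The lines ran towards each other over the hours, while the model gives them a common time course. The differences of -2.57 ± 0.76 in sh14 (adjusted p = 0.108) and -1.38 ± 0.50 in sh133 (adjusted p = 0.171) were not called by limma with the run term. Without that term they were -3.03 (adjusted p = 0.000147) and -1.62 (adjusted p = 0.0135). The sh14 minus sh133 difference within run 1, where both lines have arrays, was -1.28 (adjusted p = 0.00314).

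The muscle type aldolase Aldoa read 9.65, 9.64, 9.55 and 10.08 in sh14, 9.55, 9.00, 8.93 and 9.30 in sh133, and 10.46, 9.87, 9.56 and 9.33 in scr. Here sh14 was lowest relative to scr at 1 h and above it at 22 h, and no difference between lines was called in the model with the run term. The Aldoa and Tpi1 sets carry the array maker's mark for probes shared with related sequence, and those of Slc2a3, Arnt and Ndrg1 the mark for probes shared within a gene family or between transcripts.

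Of the later enzymes, Tpi1 and Gapdh were called higher and Pgk1 lower in sh14 than in sh133. Against scr no difference of Tpi1, Gapdh, Pgk1, Pgam1 or Pkm was called in either hairpin line, and whether these comparisons differ in size was not tested. Tpi1, which interconverts the triose phosphates, read 9.31, 9.10, 9.13 and 9.38 in sh14, 8.98, 8.47, 8.52 and 9.15 in sh133, and 9.24, 8.63, 8.76 and 9.27 in scr. At each time sh14 was highest and sh133 lowest. The difference between sh14 and sh133 was 0.54 ± 0.12 (limma adjusted p = 0.0129). Gapdh, the dehydrogenase that follows, read 10.94, 10.98, 10.88 and 11.01 in sh14, 10.70, 10.37, 10.36 and 10.75 in sh133, and 10.80, 10.66, 10.60 and 10.39 in scr. The 4 sh14 arrays lay above all the others, and sh14 exceeded sh133 by 0.58 ± 0.12 (adjusted p = 0.0114). The difference of Gapdh between sh14 and scr, 0.69 ± 0.19 with the run term, was not called (limma adjusted p = 0.0812). Without adjustment for run, the sh14 array exceeded the scr array of the same time by 0.14, 0.32, 0.28 and 0.61. Gapdh was read from a control set near the 5' end of the transcript, and the set near the 3' end differed from it by -0.17 to 0.05.

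Pgk1, the first enzyme of the chain to make ATP, had the opposite direction. It read 9.62, 9.57, 9.33 and 9.27 in sh14, 10.40, 10.05, 9.90 and 10.10 in sh133, and 10.59, 10.11, 9.83 and 9.83 in scr. All sh14 arrays were below all others, and the difference from sh133 was -0.59 ± 0.13 (limma adjusted p = 0.0130). For Pgam1, which moves the phosphate for the enolase step, the 3 lines lay within 0.48 of each other at every time and no difference was called. Pkm, the pyruvate kinase of most tissues, read 7.45, 7.44, 7.25 and 6.94 in sh14, 7.75, 7.18, 6.90 and 7.12 in sh133, and 8.39, 8.16, 7.67 and 6.92 in scr. Scr was highest at 1, 6 and 12 h and lowest at 22 h, and no difference between lines was called in the model with the run term.

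In all, 4 of the 34 genes were called between sh14 and sh133, with Hk2, Tpi1 and Gapdh higher in sh14 and Pgk1 lower, beside 14.6% of all tested genes called, 7.54% higher and 7.11% lower. Leaving out either sh133 array of run 1, at 6 or at 12 h, ended all 4 calls. The Hk2 and Tpi1 calls were also lost without the 6 h (0.35 and 0.45) or the 12 h (0.45 and 0.49) sh14 array, and that of Hk2 without the scr array at 12 h (0.51) or the sh133 array at 1 or 22 h (0.49 each). Within run 1 alone, with sh14 at 4 times and sh133 at 6 and 12 h, 7 genes were called beside 18.7% of all genes: these 4 with Aldoa (0.63), Aldoc (-1.28) and Pfkp (-0.37). Without the run term there were 13, beside 24.7%. The comparison shares the sh14 and sh133 arrays with the comparisons against scr.

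**Figure D2:**
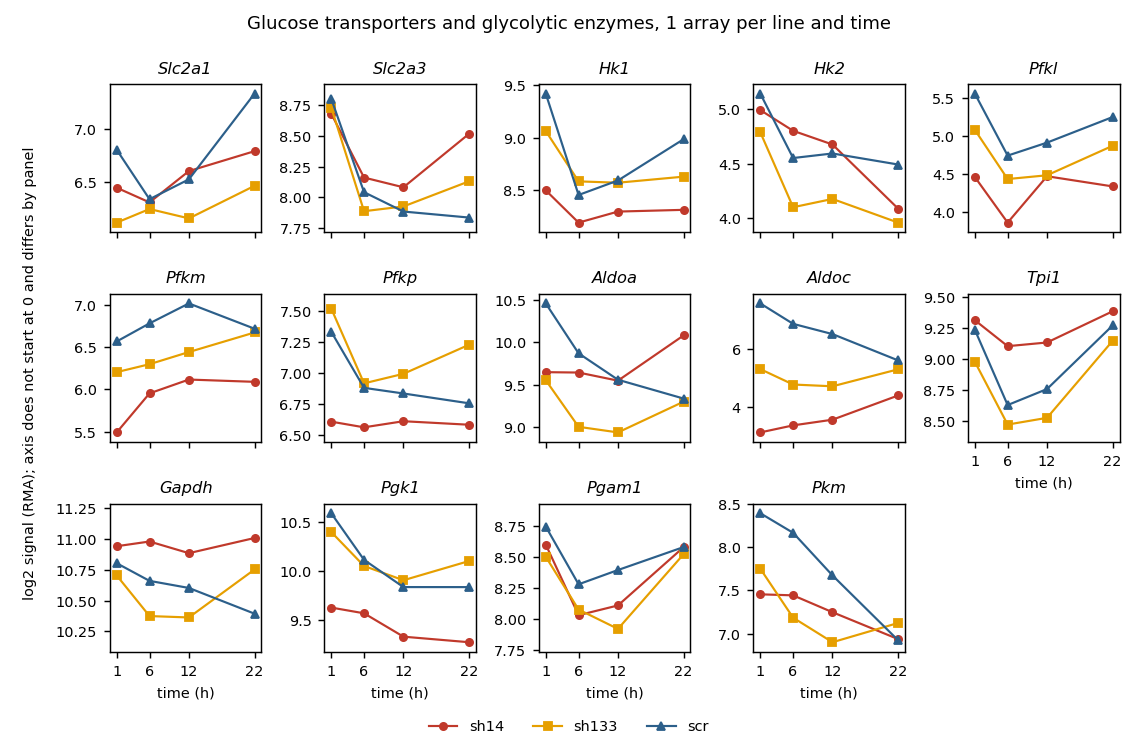
Log2 signal of the glucose transporters and glycolytic enzymes against time in hours, in pathway order, with 1 point per array and a separate vertical scale in each panel. Aldoc keeps the order scr, sh133, sh14 from the top at all 4 times, and Hk1, Tpi1 and Pgam1 are lower at 6 and 12 h than at 1 and 22 h in every line.

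At the end of the pathway, Ldha, which reduces pyruvate to lactate, read 10.23, 10.17, 10.04 and 10.08 in sh14, 10.58, 10.25, 10.19 and 10.24 in sh133, and 10.47, 10.20, 10.13 and 10.06 in scr. The lines overlapped, and the difference over both hairpins was 0.09 ± 0.12, with a 95% interval of -0.17 to 0.36. Slc16a3, the lactate exporter MCT4, was dim, at 1.79 to 1.96 in sh14, 1.89 to 2.30 in sh133 and 1.88 to 2.32 in scr. The bifunctional enzymes Pfkfb3 and Pfkfb4 set the level of fructose 2,6-bisphosphate, an activator of phosphofructokinase. Pfkfb4 read 3.48, 3.85, 3.84 and 4.14 in sh14, 3.97, 3.69, 4.14 and 4.23 in sh133, and 4.19, 4.27, 4.53 and 4.34 in scr, so that every sh14 array was below every scr array, without a call (-0.23 ± 0.21). Pfkfb3 lay between 1.46 and 2.63 over the 12 arrays.

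Of the oxygen-sensing genes, Hif1a, the oxygen-regulated subunit of HIF-1, was lower in sh133. It read 6.67, 6.32, 6.41 and 6.12 in sh14, 6.23, 6.25, 6.39 and 6.23 in sh133, and 6.77, 6.98, 6.87 and 6.98 in scr. As with Pdk1 and Aldoc, all 8 hairpin arrays lay below all 4 scr arrays, a pattern that 1.68% of all tested genes showed. The difference was -0.67 ± 0.15 in sh133 (limma adjusted p = 0.0361) and -0.60 ± 0.23 in sh14 (adjusted p = 0.212). The sh133 call was lost in run 2 alone, at a similar -0.65, and with the mean over the probe sets of the gene, at -0.31. Among fits that left out 1 array, it held only without the sh14 array at 1 or 22 h or the scr array at 1 h, and the differences lay between -0.55 and -0.82. Hif1a lies on chromosome 12. Of its 40 nearest tested genes 13 were also called lower in sh133, beside 2.45% of all tested genes. The median of the 40 neighbours was -0.35 in sh133 and 0.05 in sh14. These neighbours were looked at after the values had been seen, and their part in the result was not tested.

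Epas1, the HIF-2 alpha subunit, was dim, between 1.25 and 2.04 on all arrays. Arnt, the partner of both alpha subunits, read 5.59, 5.29, 5.45 and 5.60 in sh14, 5.29, 5.06, 5.06 and 4.99 in sh133, and 5.41, 5.28, 5.18 and 5.24 in scr. It was above scr in sh14 and below scr in sh133 at all 4 times, and the difference of 0.35 ± 0.11 between the hairpin lines was not called (limma adjusted p = 0.0694). Egln1 (PHD2), the main oxygen sensor among the prolyl hydroxylases, read 5.38, 5.43, 5.28 and 4.97 in sh14, 6.04, 5.54, 5.39 and 5.50 in sh133, and 6.26, 6.09, 6.02 and 6.16 in scr. All sh14 arrays were below all scr arrays, with -0.55 ± 0.20 in sh14 and -0.36 ± 0.13 in sh133, neither called, and -0.87 and -0.52 without the run term, both called. Vhl and Egln2 (PHD1) differed from scr by -0.05 ± 0.14 and -0.20 ± 0.12 over both hairpins, and neither was called.

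The hypoxia targets gave no call between lines in the model with the run term. P4ha1 and P4ha2 encode catalytic subunits of the prolyl hydroxylase that matures collagen. P4ha2 read 1.67, 1.52, 1.85 and 1.51 in sh14, 2.38, 1.84, 2.08 and 2.32 in sh133, and 2.86, 2.35, 2.82 and 2.76 in scr. Its order of the lines, sh14 lowest and scr highest, held at all 4 times, with -0.74 ± 0.18 in sh14 (limma adjusted p = 0.0598) and -0.38 ± 0.12 in sh133 (adjusted p = 0.116). P4ha1 read 3.01, 3.37, 3.83 and 3.36 in sh14, 3.84, 3.72, 3.50 and 4.14 in sh133, and 4.43, 4.29, 3.91 and 4.70 in scr. All its sh14 arrays were below all its scr arrays, with -0.59 ± 0.37, not called.

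Vegfa (a vessel growth factor), Bnip3 (a mitophagy receptor), Ankrd37, Ndrg1 and Kdm3a (a histone demethylase) overlapped between lines. Their differences over both hairpins lay between -0.34 ± 0.31 for Ankrd37 and 0.15 ± 0.19 for Ndrg1. The sign depended on the probe set for Ndrg1, whose other sets above the brightness limit gave -0.42, -0.06 and -0.51. It did so for Vegfa too, at -0.19 in the brightest set and 0.06 in the other. Separation of the arrays by line, without regard to time, was seen for 11 of the 34 genes with all sh14 arrays below all scr arrays, beside 8.42% of all genes, and for 3 with all sh133 arrays below, beside 5.07%. The 11 were Pfkl, Pfkm, Pfkp, Aldoc, Pgk1, Pdk1, Pfkfb4, Hif1a, Egln1, P4ha1 and P4ha2. In the opposite direction Gapdh alone had all sh14 arrays above all scr arrays, beside 9.24%. All sh14 arrays belong to one run and all scr arrays to the other, so line and run cannot be told apart in this count.

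Cell type markers moved with the lines as well. Over both hairpins 2 of 9 tested erythroid markers, Epb42 (-0.86) and Rhd (-0.84), were called lower and 1 of 7 mast cell markers, Fcer1a (1.52), higher. Of all tested genes 2.18% were called in that comparison, 1.04% lower. The Fcer1a difference lay in sh14, where its log2 signal was 3.58 to 4.55, against 0.85 to 1.38 in sh133 and 0.98 to 1.54 in scr. In sh14 against scr 3 mast cell markers were called higher, Fcer1a (3.08), Ms4a2 (1.36) and Mitf (1.03), and 3 erythroid markers lower, Alas2 (-1.83), Slc4a1 (-1.60) and Epb42 (-1.09). Of all tested genes 3.06% were called there, 1.56% lower. The 7 tested mast cell markers did not all rise in sh14, with 5 above 0 and 2 below, down to -0.49. In sh133 against scr 4.91% of all tested genes were called, 2.45% lower. Among the markers Cma1 was called lower there (-0.63), no mast cell marker higher, and Epb42 (-0.63) and Rhd (-0.68) lower. The 9 tested erythroid markers did not share that direction in sh133, with 3 above 0, 6 below and a median of -0.05. Mean Alas2 was 6.47 in sh133 and 5.43 in scr, and mean Slc4a1 7.66 and 7.16, without a call. The summed erythroid markers were 1977 to 3959 signal units in sh14, 2371 to 4415 in sh133 and 2426 to 5438 in scr, and the mast cell and basophil markers 129 to 386, 67.5 to 499 and 96.6 to 742. The summed megakaryocyte markers were 202 to 287 signal units in sh14, 122 to 294 in sh133 and 72.3 to 117 in scr, with Itga2b called higher in sh14 (1.85) and Pf4 in sh133 (2.21). In each line that was the 1 marker called of 6 tested. The list median was 0.22 in sh14 and 0.18 in sh133, with 5 markers above 0 and 1 below in each. The part of these cell type markers in the differences of the glycolytic and hypoxia genes was not tested.

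**Figure D3:**
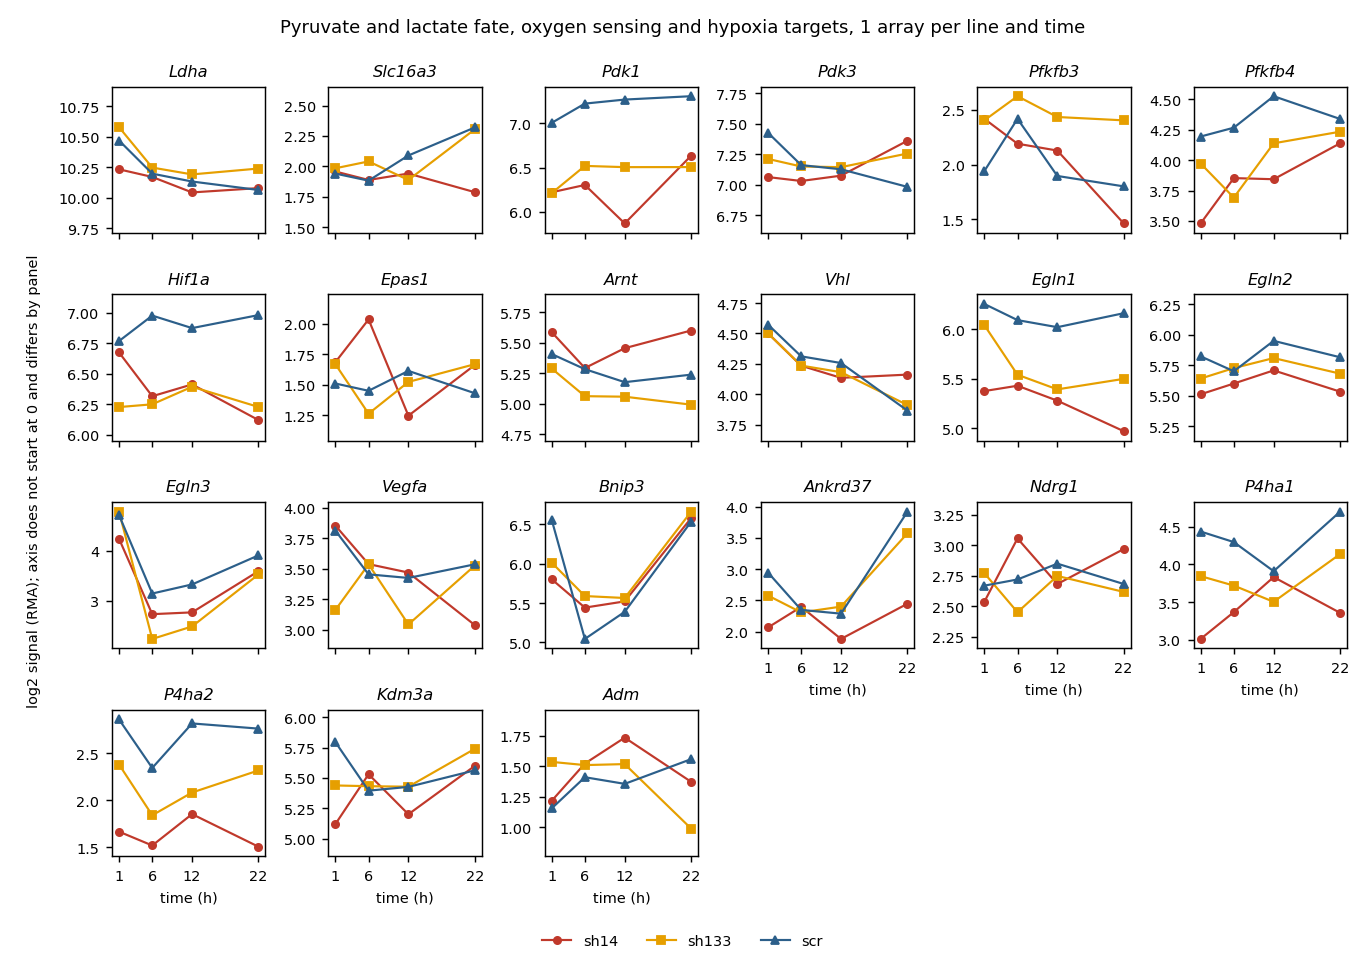
Log2 signal of the genes of pyruvate and lactate fate, oxygen sensing and hypoxia response against time in hours, with 1 point per array and a separate vertical scale in each panel. In the Pdk1 and Hif1a panels every sh14 and sh133 point is below every scr point, and in the Egln3 panel all 3 lines are lowest at 6 h.

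Over time, the strongest change was in Egln3 (PHD3), a prolyl hydroxylase that is itself induced by HIF. It read 4.24, 2.74, 2.77 and 3.59 at 1, 6, 12 and 22 h in sh14, 4.78, 2.24, 2.49 and 3.53 in sh133, and 4.71, 3.15, 3.33 and 3.91 in scr. Every line was highest at 1 h, lowest at 6 h and part of the way back at 22 h. Against 1 h, Egln3 fell by 1.64 on the log2 scale at 6 h (SE 0.13, a 3.13-fold fall, limma adjusted p = 0.000907). It was still 1.49 lower at 12 h (adjusted p = 0.000632) and 0.90 lower at 22 h (adjusted p = 0.000646). The 6 h fall was also called within each array run, at -1.56 in run 1 and -1.67 in run 2. Egln3 did not differ between lines beyond the test threshold. Of its 40 nearest tested genes on chromosome 12, however, 21 were called lower in sh133, beside 2.45% of all tested genes.

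Bnip3 fell and returned as well, but at 22 h it stood above its 1 h array in both hairpin lines. It read 5.80, 5.44, 5.52 and 6.58 in sh14, 6.01, 5.59, 5.56 and 6.66 in sh133, and 6.56, 5.04, 5.39 and 6.53 in scr. At 6 h it was 0.85 lower than at 1 h (SE 0.20, limma adjusted p = 0.0444), a difference that was -0.34 in run 1 alone and -1.35 in run 2 alone, neither called. The 22 h arrays were close to one another, within 0.13 over the 3 lines. They differed from the 1 h arrays by 0.78 in sh14, 0.65 in sh133 and -0.02 in scr. The fitted difference of 0.47 between these times was not called.

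At 6 h against 1 h, 6 of the 34 genes fell and none rose, beside 4.86% of all tested genes called in either direction and 1.93% lower. The other 4 were Slc2a3 (-0.67, adjusted p = 0.0343), Hk1 (-0.64, adjusted p = 0.0369), Pfkl (-0.65, adjusted p = 0.0331) and Pgam1 (-0.46, adjusted p = 0.0446). Only Egln3 kept its call in each of the runs alone and without any 1 of the arrays. The other 5 calls were all lost without the 6 h sh14 array, any 1 sh133 array or the scr array at 1, 6 or 12 h, with differences without 1 array between -0.38 for Pgam1 and -1.14 for Bnip3. The median of the 34 differences was -0.16, and that of all genes 0.03. Counting signs instead, 17 of the 34 genes were lower at 6 h than at 1 h in all 3 lines, beside 16.9% of all genes, and only Pfkm and Pdk1 were higher in all 3, beside 24.0%.

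At 12 h against 1 h, 4 genes were called lower and 1 higher, beside 7.06% of all genes called, 2.75% lower and 4.32% higher. Slc2a3 read 8.68, 8.16, 8.08 and 8.52 in sh14, 8.73, 7.89, 7.93 and 8.13 in sh133, and 8.80, 8.04, 7.89 and 7.84 in scr. Its 1 h arrays were the highest of each line, and the difference at 12 h was -0.73 ± 0.15 (limma adjusted p = 0.0178). Hk1 (-0.56, adjusted p = 0.0473), Pgam1 (-0.45, adjusted p = 0.0395) and Egln3 were the others to fall. Pfkm was the gene that rose, by 0.55 ± 0.11 (adjusted p = 0.0182). Again 17 genes were lower than at 1 h in all 3 lines, beside 17.7%, with 3 higher in all 3 (Pfkm, Pfkfb4 and Egln2), beside 24.8%. Without the run term 9 genes were called at 12 h, beside 10.5%, and in each run alone Egln3 was the single call. Of the 12 fits that left out 1 array, Egln3 was called in 12, Slc2a3 and Pfkm in 9 each, and Hk1 and Pgam1 in 2 each; without the 12 h scr array Egln3 was the single call. The median of the 34 differences was -0.23, and that of all genes 0.03.

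At 22 h against 1 h, 7 of the 34 genes fell and 2 rose, a share to be read beside the 18.1% of all tested genes called in that comparison, 9.34% lower and 8.74% higher. The falls were in Slc2a3 (-0.57, adjusted p = 0.0153), Hk2, Pgk1 (-0.47, adjusted p = 0.0171), Pkm, Ldha (-0.30, adjusted p = 0.0404), Vhl and Egln3. Hk2 fell by 0.79 on the log2 scale (SE 0.12, limma adjusted p = 0.00167). It was called without any 1 array, at -0.67 to -0.92, and in each run alone, at -0.90 in run 1 and -0.74 in run 2. Pkm fell by 0.87 (SE 0.16, adjusted p = 0.00483). Its scr arrays spanned more than its hairpin arrays, 8.39 at 1 h and 6.92 at 22 h, and in run 1 alone, which holds the sh14 arrays of both times, the difference was -0.52 and not called.

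Vhl, the recognition subunit of the ubiquitin ligase that removes HIF alpha, read 4.50, 4.24, 4.14 and 4.16 in sh14, 4.50, 4.24, 4.18 and 3.91 in sh133, and 4.57, 4.31, 4.26 and 3.87 in scr. The 3 lines were nearly superimposed up to 12 h, and the 22 h difference was -0.54 ± 0.10 (limma adjusted p = 0.00487). Ankrd37 was 1 of the 2 genes that rose, by 0.78 ± 0.23 (adjusted p = 0.0413). It read 2.07, 2.40, 1.88 and 2.45 in sh14, 2.58, 2.31, 2.40 and 3.57 in sh133, and 2.95, 2.35, 2.29 and 3.92 in scr, so that the sh133 and scr arrays at 22 h stood above all others and the sh14 array did not. The call was lost in run 1 alone, at 0.38, and without any 1 of 9 arrays, at 0.53 to 0.90. Pfkm, at 0.41 ± 0.10, was the other (adjusted p = 0.0192). In all 3 lines 12 genes were lower at 22 h than at 1 h, beside 20.5%, and 7 were higher, beside 24.3%. The median of the 34 differences was -0.11, and that of all genes 0.02. Without the sh133 array at 1 or at 22 h, 5 calls were left. Of the 12 fits that left out 1 array, Pgk1 was called in 10, Slc2a3 and Pfkm in 8 each, and Ldha in 2.

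The erythroid and mast cell markers moved in these same comparisons. The summed signal of 10 measured erythroid markers was 1977 to 2426 units at 1 h, 3106 to 3443 at 6 h, 3126 to 4083 at 12 h and 3959 to 5438 at 22 h. That of 9 measured mast cell and basophil markers was 386 to 742, 167 to 447, 111 to 220 and 67.5 to 129. Hdc, the histamine-forming enzyme of mast cells and basophils, fell by 3.29 on the log2 scale at 22 h. It weighed most in that sum, with a mean log2 signal of 7.32 against 3.95 for Mitf, the next brightest. The list did not move as one: of its 7 tested markers 2 were called higher and 3 lower at 22 h. Of all tested genes 18.1% were called in that comparison. The median difference of the list was 0.17, with 4 markers above 0 and 3 below. The part of the erythroid and mast cell markers in the changes of the glycolytic genes was not tested.

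**Figure D4:**
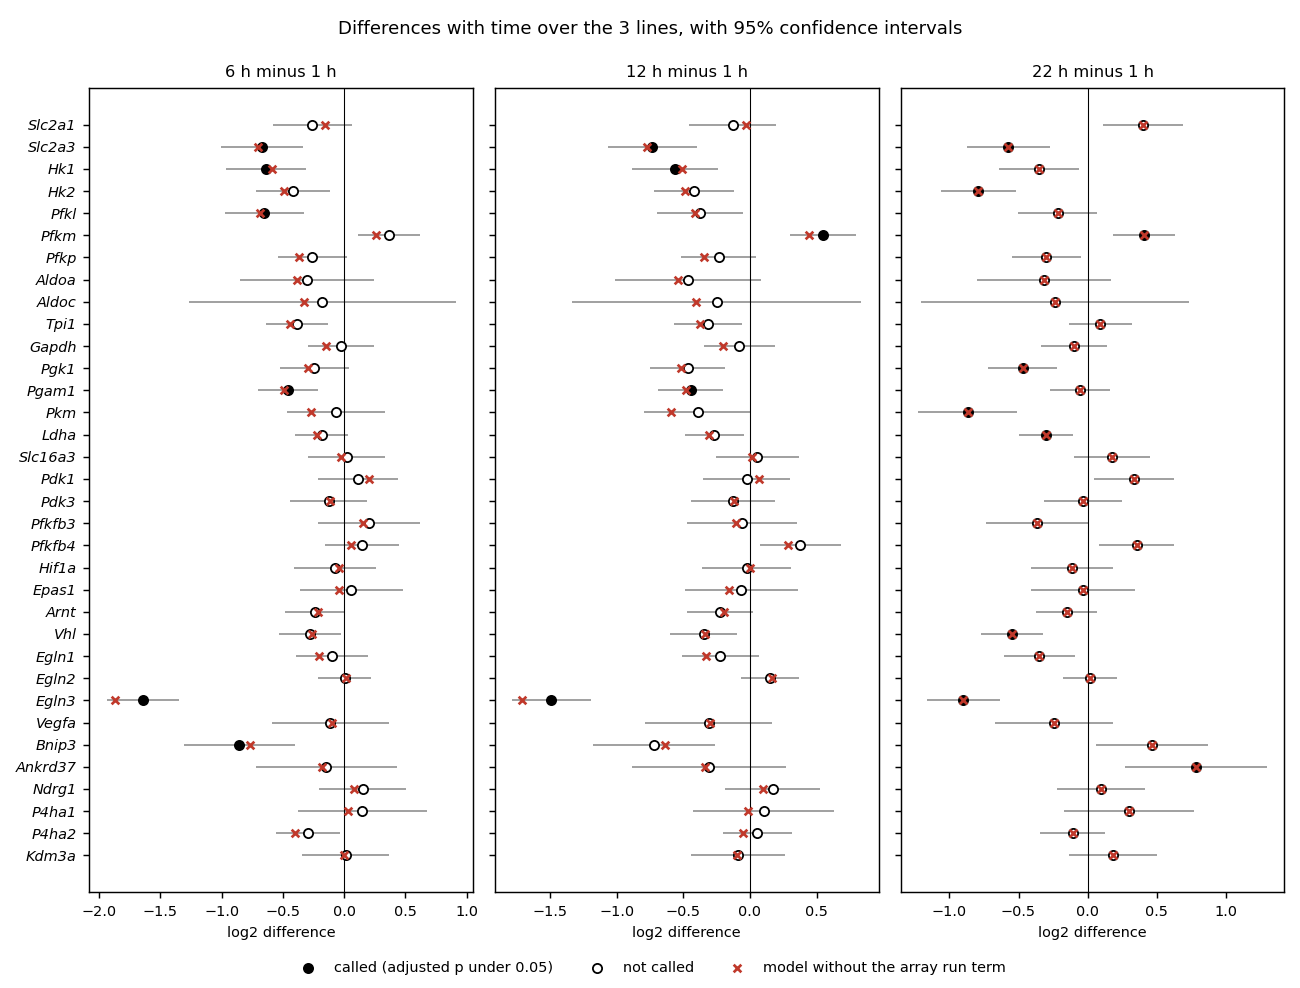
Log2 differences of the 34 tested genes, in pathway order, for 6, 12 and 22 h minus 1 h over the 3 lines. Circles are the limma estimates with 95% confidence intervals as bars, filled where the adjusted p is under 0.05, and crosses are the estimates without the array run term; Egln3 is filled in all 3 panels, at -1.64, -1.49 and -0.90.

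A dip at both middle times was shared by 5 of the 34 genes: in Hk1, Tpi1, Pgam1, Egln3 and Bnip3 the 6 and 12 h arrays were below the 1 and 22 h arrays in every line. Of all tested genes 1.09% had this pattern, which was chosen after the values had been seen. Pgam1 read 8.60, 8.03, 8.11 and 8.58 in sh14, 8.50, 8.08, 7.92 and 8.52 in sh133, and 8.75, 8.28, 8.40 and 8.58 in scr. Its 1 and 22 h arrays agreed within 0.17 in each line. Tpi1 followed the same course without a call at 6 h (-0.39 ± 0.11, limma adjusted p = 0.0934). In sh133 the middle times and the outer times belong to different array runs, whereas in sh14 and in scr all times belong to the same run.

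HIF binds short sequences with the core ACGTG or GCGTG. Promoter windows of 250 bases before to 50 bases after the annotated start, from RefSeq on GRCm38.p6, were found for 32 of the 35 genes, in 47 windows. They were searched on both strands, which adds CACGT and CACGC, and overlapping matches such as CACGTG were merged into one run. At least 1 match was present in 37 of the 47 windows (78.7%), against 43.8% of all 32851 windows, and 30 of the 32 genes had a match in some window (93.8%), against 46.7% of all 27025 genes with a window. The windows of these genes were richer in G and C, at a median of 62.3%, than all windows, at 52.7%, and the core holds a CG; the shares were not matched for base composition. Windows are printed for Pdk1, which separated the hairpin lines from scr, and for 4 of the 5 genes that dipped together. Matched letters are in capitals, the sequences run 5' to 3' on the gene's strand, and Pdk1 has a second annotated start without a match.
Pdk1, chr2:71872974-71873273, + strand: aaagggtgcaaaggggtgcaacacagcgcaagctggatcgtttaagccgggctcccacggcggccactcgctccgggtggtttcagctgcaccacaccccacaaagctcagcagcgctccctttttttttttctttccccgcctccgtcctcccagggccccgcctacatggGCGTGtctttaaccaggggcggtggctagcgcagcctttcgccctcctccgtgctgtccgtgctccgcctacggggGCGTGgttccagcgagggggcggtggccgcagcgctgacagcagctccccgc
Egln3, chr12:54203825-54204124, - strand: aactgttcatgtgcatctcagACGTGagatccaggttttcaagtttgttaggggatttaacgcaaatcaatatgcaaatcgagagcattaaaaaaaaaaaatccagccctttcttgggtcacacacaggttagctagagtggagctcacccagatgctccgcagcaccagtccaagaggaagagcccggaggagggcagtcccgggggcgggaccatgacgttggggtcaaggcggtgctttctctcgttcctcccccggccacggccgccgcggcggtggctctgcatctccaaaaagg
Bnip3, chr7:138909457-138909756, - strand: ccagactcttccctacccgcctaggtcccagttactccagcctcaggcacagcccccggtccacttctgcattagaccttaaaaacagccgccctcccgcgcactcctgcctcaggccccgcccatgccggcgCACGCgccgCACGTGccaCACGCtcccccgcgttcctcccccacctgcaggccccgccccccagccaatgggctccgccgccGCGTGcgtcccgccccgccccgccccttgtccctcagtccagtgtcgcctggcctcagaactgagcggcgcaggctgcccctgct
Pgam1, chr19:41911621-41911920, + strand: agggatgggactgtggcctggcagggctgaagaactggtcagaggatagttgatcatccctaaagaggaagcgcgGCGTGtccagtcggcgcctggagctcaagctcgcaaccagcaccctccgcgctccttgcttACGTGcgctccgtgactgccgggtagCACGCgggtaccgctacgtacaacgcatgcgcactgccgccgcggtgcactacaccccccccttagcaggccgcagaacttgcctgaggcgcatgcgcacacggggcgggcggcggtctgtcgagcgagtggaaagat
Tpi1, chr6:124814109-124814408, - strand: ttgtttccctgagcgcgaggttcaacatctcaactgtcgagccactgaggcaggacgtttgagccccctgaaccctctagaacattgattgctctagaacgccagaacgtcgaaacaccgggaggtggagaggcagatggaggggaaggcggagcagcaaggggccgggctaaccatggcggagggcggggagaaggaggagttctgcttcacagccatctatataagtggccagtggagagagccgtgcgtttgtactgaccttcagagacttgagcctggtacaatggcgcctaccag

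The Bnip3 window held 4 runs of matched letters, that of Pgam1 held 3, that of Pdk1 held 2 and that of Egln3 held 1, whose first base is at position -229 from the start. The Tpi1 window held none, and so the match was not common to all 5 genes that dipped together. Hk1, whose windows are not printed, had 4 runs in one window and 0 in the other. A match is only a run of letters, and no binding was measured.

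Whether the lines changed differently over time was tested by comparing slopes on log2 hours. None of the 34 genes was called (limma, with 7 at an unadjusted p under 0.05), beside 0.00789% of all tested genes, which is 1 gene. Aldoc had the largest difference, with the mean slope of the hairpin lines 0.52 ± 0.09 log2 units per doubling of hours above that of scr (adjusted p = 0.110). Its slope was 0.24 in sh14, 0.00 in sh133 and -0.40 in scr. Aldoa was next, with a difference of 0.26 ± 0.06 (adjusted p = 0.158). Of the 34 genes, 26 had a slope difference above 0 and 8 below, all measured on the same arrays. The 26 held 11 of the 12 tested glycolytic enzymes and all 7 hypoxia targets. The median of the 34 was 0.03, and that of all tested genes -0.0002.

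Further lists of the same pathways held genes called with time and genes called between lines. Of 14 other tested genes of glycolysis, 3 were called at 22 h against 1 h and all 3 rose, beside 18.1% of all tested genes called and 8.74% higher, with a list median of 0.14 against 0.02 over all genes. Pklr, the liver and red cell pyruvate kinase, read 3.76, 4.25, 4.27 and 4.84 in sh14, 4.06, 4.56, 4.86 and 5.22 in sh133, and 4.50, 4.69, 5.58 and 5.95 in scr. It was higher at each later time in every line, by 0.75 ± 0.17 at 12 h (limma adjusted p = 0.0234) and by 1.23 ± 0.15 at 22 h (adjusted p = 0.000395), while Pkm fell. Bpgm, which makes the haemoglobin effector 2,3-bisphosphoglycerate, rose by 0.44 ± 0.13 (adjusted p = 0.0405). Bsg, a chaperone of lactate transporters, rose by 0.49.

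Bpgm was also the 1 gene of that list called between a hairpin line and scr. It read 4.68, 4.97, 5.13 and 5.35 in sh14, 5.42, 5.86, 5.94 and 6.08 in sh133, and 6.02, 6.11, 6.17 and 6.01 in scr. Every sh14 array was below every other array, and sh14 differed from scr by -1.11 ± 0.22 (limma adjusted p = 0.0276) and from sh133 by -0.83 ± 0.15 (adjusted p = 0.00525). Of all tested genes 3.06% were called between sh14 and scr and 14.6% between sh14 and sh133.

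Of 10 tested genes of pyruvate entry into the mitochondrion, 2 rose and 2 fell at 22 h, beside the same 18.1% of all genes. Pcx, which carboxylates pyruvate to oxaloacetate, rose by 1.39 ± 0.15 (adjusted p = 0.000263) and Pdhx, a subunit of pyruvate dehydrogenase, by 0.35, and both were also higher at 12 h, by 1.10 and 0.45. Pdp1, the phosphatase that reactivates pyruvate dehydrogenase and so opposes the Pdk kinases, fell by 1.08 ± 0.17 (adjusted p = 0.00204), and the subunit Pdha1 by 0.45. None of the 10 was called between either hairpin line and scr. Pdha1 alone was called between the hairpin lines, higher in sh14 (0.61, limma adjusted p = 0.0174), beside 14.6% of all tested genes called.

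The pentose phosphate pathway branches off at glucose 6-phosphate. Of its 7 tested genes 2 were called higher in sh14 than in sh133, beside 14.6% of all genes called and 7.54% higher. They were Pgd, phosphogluconate dehydrogenase (0.71 ± 0.14, limma adjusted p = 0.00949), and Rpia, the ribose phosphate isomerase (0.56 ± 0.11, adjusted p = 0.00981). The list median of that difference was 0.30, against 0.00 over all genes, and 6 of the 7 had an unadjusted p under 0.05. At 22 h against 1 h the same pair was called, with a rise of Rpia (0.35) and a fall of Pgd (-0.43), beside 18.1% of all genes.

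Of 17 tested genes of the citric acid cycle, 4 were called higher in sh14 than in sh133 and 2 lower in sh133 than in scr, beside 14.6% and 4.91% of all genes called. Suclg2, a subunit of succinate-CoA ligase, read 7.69, 7.59, 7.67 and 7.47 in sh14, 6.84, 6.60, 6.61 and 6.20 in sh133, and 7.19, 6.98, 7.06 and 6.92 in scr. Every sh14 array lay above every scr array, and every sh133 array below. The difference was 1.00 ± 0.11 in sh14 against sh133 (limma adjusted p = 0.000527) and -0.51 ± 0.11 in sh133 against scr (adjusted p = 0.0322). Dlst, a subunit of the oxoglutarate dehydrogenase complex, differed by 0.47 between the hairpin lines and by -0.47 in sh133 against scr, and Sdha (0.63) and Sdhb (0.50), subunits of succinate dehydrogenase, were called between the hairpin lines alone. At 22 h against 1 h Ogdh (0.38) and Dlst (0.41) rose and Suclg2 (-0.38) fell, which is 3 of 17 beside 18.1% of all genes. Ogdh was also called higher at 12 h (0.51). The median difference of the list was 0.00 between the hairpin lines, 0.01 in sh133 against scr and -0.09 at 22 h.

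Of 24 other tested hypoxia targets, 7 fell and 1 rose at 22 h, beside 18.1% of all genes called, 9.34% lower and 8.74% higher, with a list median of -0.06. Bhlhe40, a transcriptional repressor, read 5.04, 3.56, 4.35 and 4.63 in sh14, 4.90, 3.43, 3.56 and 3.56 in sh133, and 5.49, 4.39, 4.15 and 4.07 in scr. Like Egln3 it was highest at 1 h in every line, and it was lower by 1.33 at 6 h, 1.11 at 12 h and 1.05 at 22 h (limma adjusted p between 0.00921 and 0.0260). Ddit4, an inhibitor of mTORC1, and Cited2, a competitor of HIF for its coactivators, were also lower at all 3 later times, Ddit4 by 0.93 and Cited2 by 1.27 at 22 h. Car12, Ero1a, P4hb and Wsb1 fell at 22 h by 1.29, 0.74, 0.36 and 0.63. Selenbp1 was the gene that rose, by 1.00 ± 0.19. At 12 h Car12 (-0.83) and Wsb1 (-0.54) were called lower as well, which made 5 of the 24 beside 7.06% of all genes. At 6 h Gbe1, the glycogen branching enzyme, was called higher (0.57) beside the 3 falls, against 4.86% of all genes.

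Mif, a cytokine gene, was the 1 gene of that list called between both hairpins and scr, at -1.11 ± 0.11 (limma adjusted p = 0.00129), and it was called in each hairpin line, at -1.06 in sh14 and -1.16 in sh133. Of all tested genes 2.18% were called over both hairpins, 3.06% in sh14 and 4.91% in sh133. Car12, a carbonic anhydrase, was called higher in sh133 than in scr (1.08 ± 0.22, adjusted p = 0.0227). Between sh14 and sh133 Gbe1 was called higher in sh14 (0.79) and Mxi1 lower (-1.01), beside 14.6% of all tested genes called. Of the 40 tested genes nearest to Mif on chromosome 10, 10 were also called lower in sh14 and 16 in sh133. The shares of all tested genes called lower were 1.56% and 2.45%. Of 15 other tested regulators of the HIF pathway, Siah2 (-0.93), Crebbp (-0.53) and Rbx1 (-0.43) fell and Eloc (0.30) and Cul2 (0.29) rose at 22 h, beside 18.1% of all genes called. In the hairpin comparisons Os9 was lower in sh133 than in scr (-0.52, adjusted p = 0.0192) and the sh14 line had less signal than the sh133 line for Hif1an, the asparaginyl hydroxylase of HIF (-0.57, adjusted p = 0.0122). Each was the 1 gene of the 15 called in its comparison, beside 4.91% and 14.6% of all tested genes.

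Some of these genes lie in chromosome stretches where the hairpin lines differ as a whole. Tpi1, Gapdh, Slc2a3 and Vhl are on chromosome 6, where the 40 nearest tested genes of each had median differences between sh14 and scr of 0.34, 0.25, 0.35 and 0.33. Of the same neighbours, 17, 13, 18 and 16 were called higher in sh14 than in sh133, beside 7.54% of all tested genes. Tpi1 and Gapdh were called higher there too. These 2 genes lie close together, so the counts can hold the same neighbours and are not independent. Pfkp is on chromosome 13, where its 28 neighbours had a median of -0.56 in sh14. For Pdk1, on chromosome 2, the medians of the 40 neighbours were -0.06 in sh14 and 0.04 in sh133, and for Slc2a1, on chromosome 4, they were 0.15 and -0.04. These medians were computed after the values of the genes had been seen, and the part of the stretches in the differences was not tested.

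Other probe sets were available for 19 of the called results. Of 28 such probe sets bright enough to be tested, 27 had the same sign as the brightest set, and the exception was a dim set of Pfkl.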

How the data were processed

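Amplified RNA of I/11 cells was hybridised as biotin-labelled DNA to mouse expression arrays of Affymetrix, per the labels' protocols. The deposited log2 probe set signals come from RMA, as the submitters' processing notes state; its version was not given in the sources used here. This method corrects background, equalises the distributions of arrays and summarises probes, so a shift of total RNA is not measured. The values ran from 0.04 to 13.1 over 45101 probe sets. All 12 array columns were used.

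In the platform annotation 34958 probe sets had 1 gene, 932 had several and 9211 had none, and 34754 of the first had an Entrez identifier in the RefSeq gene table of GRCm38.p6, which gave current symbols, chromosomes and gene order. The probe set of highest mean stood for each of 18194 genes. A filter at the 40th percentile of all probe sets by mean (log2 1.45) kept 12673.

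Differences were fitted with limma 3.58.1 in R 4.3.3 (lmFit and eBayes), with Benjamini-Hochberg adjustment over the 12673 genes and a threshold of 0.05. Its terms were array run, shRNA and time as a factor, on 5 residual degrees of freedom. Slopes were fitted on log2 hours with shRNA, their interaction and array run, also on 5. Errors are standard errors of the fit unless named otherwise. Precision is limited by the number of arrays and, for sh14 against scr, by the lack of a shared run. The median standard error was 0.15 for both hairpins against scr, 0.20 for sh14 and 0.13 for sh133. For 22 h against 1 h it was 0.11. Arrays were matched across lines by time, since the labels give no replicate numbers. A marker sum adds the linear signals of the markers of a list. The fits were tested on simulated data.

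The genes and lists were chosen with earlier results of these data known. Named are all listed genes, Plcg1, and of each further list the genes called in the comparisons described, with markers by list. Alternatives were no run term, each run alone, no filter or one at the 60th percentile, the mean over probe sets, a variance trend with robust fitting, time as log2 hours, and leaving out each array. Figures used matplotlib 3.10.9 in Python 3.11.15.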

Additional observations from a re-analysis of the deposited data

Results flagged for a closer look

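Single arrays stood apart from the 3 others of their line in 9 of 105 groups of 4 arrays, by a gap above Dixon's 95% critical value. Chance alone gives about 1 in 20. The 4 arrays of a line differ in time, so such a gap can be a change with time. Most of the gaps were in sh133. That line had its 6 and 12 h arrays in run 1 and its 1 and 22 h arrays in run 2. The part of the array run in these gaps was not tested. In sh133 the 1 h array was highest for Hk1, at 9.06, and for Ldha, at 10.6, and lowest for Pdk1, at 6.21. Also in sh133, Pfkfb3 was highest at 6 h, at 2.63, Hif1a at 12 h, at 6.39, and Kdm3a at 22 h, at 5.74, while Adm was lowest at 22 h, at 0.99. In sh14 the 22 h array was highest for Pdk3, at 7.36, and in scr the 1 h array was highest for Hk2, at 5.14.

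Some genes moved in opposite directions in the hairpin lines at all 4 times. The mean matched difference from scr was -0.36 in sh14 and 0.21 in sh133 for Pfkp, 0.26 and -0.19 for Tpi1, and 0.21 and -0.18 for Arnt. Both differences use the same scr arrays. These means are not adjusted for array run, and no sh14 array shared a run with a scr array. With the run term the sh14 differences from scr were -0.04 for Pfkp, 0.43 for Tpi1 and 0.13 for Arnt. The direct comparison of sh14 with sh133 called Tpi1 (0.54, limma adjusted p = 0.0129) and not Pfkp (-0.41, adjusted p = 0.0593) or Arnt (0.35, adjusted p = 0.0694).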

How the results depend on the processing

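Of 29 called gene results, none changed direction in 548 combinations with an alternative, 367 kept their call and 181 lost it. Egln3 at 6 and 12 h and Hk2 at 22 h kept it under all 19 alternatives each, and Egln3, Pkm and Vhl at 22 h under 18. The numbers of the 34 genes called moved with the array run term: without it 14 in place of 1 over both hairpins, 16 in place of 1 in sh14, 10 in place of 3 in sh133, 13 in place of 4 between sh14 and sh133, and 9 in place of 5 at 12 h. In run 1 alone there were 7 between the hairpin lines, 1 at 6 h, 1 at 12 h and 5 in place of 9 at 22 h, and in run 2 alone 1 at 6 h and 1 at 12 h, all from fewer arrays. With the mean over probe sets there were 0 over both hairpins, with time as log2 hours 2 over both hairpins and 4 in sh14, and with a variance trend 2 in sh14. Leaving out 1 array at a time gave 0 to 2 over both hairpins, 0 to 3 in sh14, 0 to 4 in sh133, 0 to 7 between the hairpin lines, 1 to 6 at 6 h, 1 to 6 at 12 h and 5 to 9 at 22 h. The count in sh133 was 0 without its 1 or 22 h array, and that in sh14 was 0 without its 6 h array or any 1 sh133 array. For slopes against time it stayed at 0 throughout. The cause of these shifts was not tested. The lines were matched by time, which was a term of each fit. No paired analysis was possible because, beyond this matching, the labels give no replicate numbers.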
